A study of Mus musculus with 4 samples.

Results

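The genes Elf1, Elf2, Elf3, Elf4, Elf5, Ehf and Spdef encode 7 ETS transcription factors of the ESE and PDEF type and close relatives. Their chromatin was followed by FAIRE-seq, in which DNA that is free of nucleosomes after formaldehyde fixation is recovered and sequenced. All deposited FAIRE-positive regions that overlapped the gene body or the 50 kb upstream of the transcription start site (TSS) of each gene in mm10 were taken. Regions of the 4 libraries that overlapped by 1 bp were merged, which gave 19 regions out of 35796 in the whole series.

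All 4 libraries came from EpRas cells, a mouse mammary gland epithelial line transformed with active H-Ras. The first was transfected with control siRNA and left untreated for 4 days (siControl untreated), and the second received control siRNA and 4 days of 1 ng/ml TGF-β (siControl TGF-β). The others received the same TGF-β treatment and either of 2 sets of siRNAs against Etv4 and Etv5 (siEtv4/5 set 1 and siEtv4/5 set 2). H-Ras was active in every library, so no library shows the cells without Ras. One list of regions was analysed per group, and no replicate was at hand. The study states biological replicates, and whether their reads were combined before regions were called was not stated. Hence no difference between conditions could be tested, and the intervals below cover counting error only.

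ETS factors share a DNA-binding domain that recognizes a GGAA core. Elf3, Elf5 and Ehf form the ESE group and are found mainly in epithelia, and Spdef is an ETS factor of prostate, breast and goblet cells. Elf5 drives alveolar differentiation and milk production in the mammary gland, while Ehf and Elf3 are known for roles in epithelial differentiation. Elf1, Elf2 and Elf4 are relatives that many tissues and blood cells express, so the group is not epithelial as a whole.

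The lists held 22247, 28754, 22516 and 14925 regions in the untreated, siControl TGF-β, set 1 and set 2 libraries, from an estimated depth of 15.28, 16.27, 17.28 and 20.66 M reads. The set 2 list was the shortest although its estimated depth was the highest, and it had the lowest median fold enrichment, 7.154 against 7.913 to 8.435 in the others. All 19 regions were also found without the set 2 library. The level of Etv4 and Etv5 after knockdown was not measured by these lists. Of 6 epithelial marker genes, the promoters of the keratin genes Krt8 and Krt14 were called in all 4 libraries, Krt18 in 3, the E-cadherin gene Cdh1 in the untreated and set 2 libraries, Epcam in the untreated library, and Krt5 in none. Of 11 marker genes of blood, endothelium, muscle, neurons and fibroblasts, 9 had no called promoter, against 59.8% of all protein-coding genes. Pecam1 was called in siControl TGF-β and Col1a1 in set 2. The windows of these 11 genes held 17, 22, 13 and 7 regions in the order above. Over all libraries merged, their median was 2 regions per gene, as for all protein-coding genes, and that of the 6 epithelial genes was 4.5. For comparison, 34.3%, 36.0%, 32.3% and 25.9% of all protein-coding genes had a called promoter in the 4 libraries.

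The regions were spread unevenly over the 7 genes. The 3 broadly expressed genes held 12 of the 19 regions in 391.3 kb of window, and the 4 epithelial genes held 7 in 298.7 kb, of which Elf3 alone held 5. By library, the epithelial genes had 3 regions in the untreated, 4 in the siControl TGF-β, 4 in the set 1 and 3 in the set 2 library. The broadly expressed genes had 4, 10, 6 and 3 in the same order. The whole lists also differed in length, 22247 against 28754 regions for the untreated and siControl TGF-β libraries. With each list held to its 14925 most significant regions, the 7 windows held 6 untreated and 7 siControl TGF-β regions, and the regions of Elf4 and Spdef were no longer listed. In these libraries, in that order, Elf1 then held 2 and 2 regions, Elf2 2 and 3, and Elf3 2 and 2. The rise in the broadly expressed genes was thus mostly absent at equal list length.

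**Figure D1:**
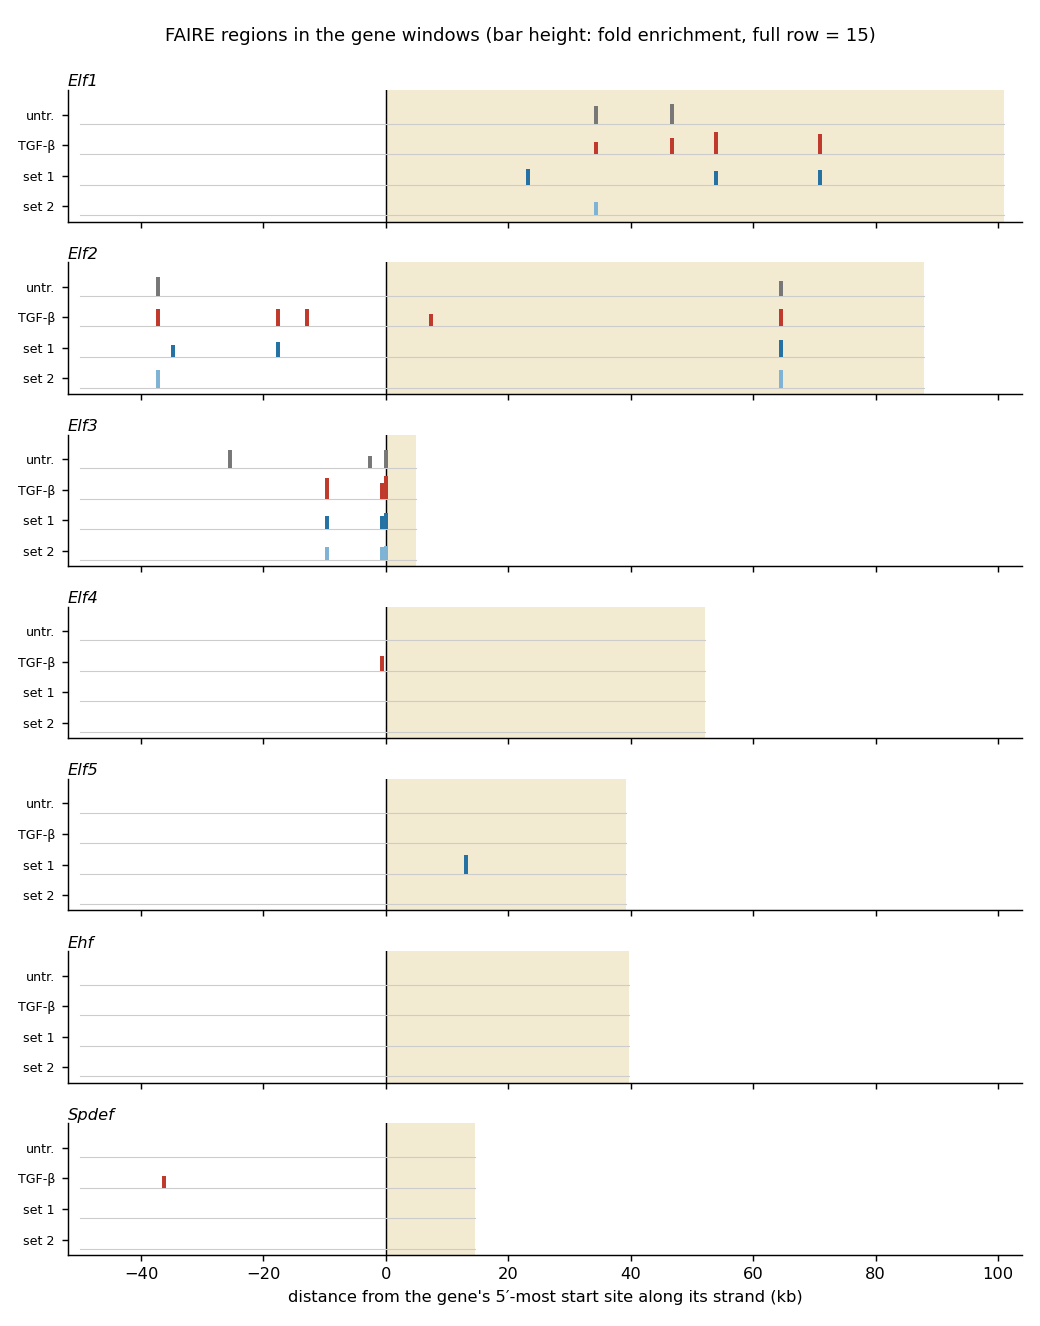
FAIRE-positive regions in the windows of the 7 genes, one panel per gene and one row per library. The x axis is the distance from the gene's start site along its strand in kb, shading marks the gene body, and the bar height is the fold enrichment (a full row equals 15 on this linear scale). Elf3 has bars at its start site in all 4 rows, whereas Ehf has no bar.

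Elf3, which trans-activates epithelial genes and has been described as an activator of Tgfbr2, lies on the minus strand of chromosome 1 (window chr1:135253575-135308568, 54.99 kb). Its window held 5 regions, more than 87.1% of the 11407 windows of protein-coding genes of like length (0.8 to 1.25 times), where the median was 1. The promoter region at chr1:135258454-135258739 had its midpoint 28 bp and its strongest summit 2 bp upstream of the TSS (distances below are from the midpoint) and overlapped the 5′ untranslated exon of Elf3 and an intron of the antisense gene Gm26642. It was 1 of the 2 regions in the windows that every library listed. A second promoter region lay 699 bp upstream at chr1:135259182-135259352, and a distal region lay 9.68 kb upstream at chr1:135268083-135268405 overlapping a coding exon of the neighbouring gene Rnpep, an aminopeptidase gene. The bases around the summits of the promoter region and the distal region are shown because only here did a ratio between libraries have an interval that leaves out 1. They are on the strand of Elf3 in GRCm38.p6, at chr1:135258539-135258669, with no more than 30 bases of the untranslated exon, and at chr1:135268203-135268402. Capitals mark the letters of an ETS site (AGGAAG or CGGAAG) or an AP-1 site (TGANTCA) on either strand.
Elf3 promoter: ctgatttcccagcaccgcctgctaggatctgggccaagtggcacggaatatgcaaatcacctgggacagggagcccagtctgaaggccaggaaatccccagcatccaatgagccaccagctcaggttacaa
Elf3 distal, 9.68 kb upstream: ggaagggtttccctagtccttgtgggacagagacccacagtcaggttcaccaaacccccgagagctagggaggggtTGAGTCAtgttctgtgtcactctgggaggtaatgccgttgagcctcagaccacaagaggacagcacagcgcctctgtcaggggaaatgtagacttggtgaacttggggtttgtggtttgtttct
The promoter stretch held neither of these letters, and the distal stretch held 1 AP-1 match.

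At the Elf3 promoter, untreated cells gave 30 fragments at the summit (95% Poisson interval 20.2 to 42.8), the siControl TGF-β library 37 (26.1 to 51.0), set 1 26 (17.0 to 38.1) and set 2 23 (14.6 to 34.5). The fold enrichment over local background was 8.708, 11.11, 7.913 and 6.621, respectively. These values exceeded 60.6%, 86.0%, 50.0% and 33.5% of the regions on the respective list, which gives its place within each list and, since the lists differ in length, no comparison between them. When fragments were divided by the estimated depth of their library (depth-scaled), the siControl TGF-β value was 1.16 times the untreated value (95% exact binomial interval 0.696 to 1.94), which did not differ beyond counting error. The set 1 value was 0.662 times that of siControl TGF-β (0.385 to 1.12), and the set 2 value 0.490 times (0.278 to 0.846). The last interval leaves out 1. However, the median ratio of set 2 over siControl TGF-β was 0.613 over the 10594 regions listed in all 4 libraries, with a central 95% range from 0.385 to 1.01 that holds the Elf3 value. These comparisons share the siControl TGF-β library.

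The regions 699 bp and 9.68 kb upstream of Elf3 were absent from the untreated list and present in all 3 TGF-β lists. At 9.68 kb upstream, the summit held 32 fragments in siControl TGF-β, 19 in set 1 and 19 in set 2, with fold enrichments of 9.957, 6.704 and 6.084. The set 1 to siControl TGF-β depth-scaled ratio was 0.559 (0.299 to 1.02), and the set 2 ratio was 0.468 (0.250 to 0.850). Over the 10594 regions listed in all 4 libraries, the median set 2 ratio was 0.613. Its central 95% range, 0.385 to 1.01, holds the value of 0.468. However, the region at 9.68 kb is not itself among those regions, since the untreated list lacks it. In the untreated library, regions listed at a like local background had at least 13 fragments, with a median of 23, and a weaker untreated signal would not have been listed. At 699 bp upstream, the summits held 25, 22 and 22 fragments, and fold enrichments were 7.572, 6.662 and 6.28. Neither knockdown ratio there left out 1 (0.829, interval 0.445 to 1.53, for set 1 and 0.693, interval 0.372 to 1.28, for set 2).

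Conversely, 2 regions in the Elf3 window were listed in the untreated library alone. The first, at chr1:135261063-135261190 in an intron of Gm26642, had 21 fragments and a fold enrichment of 5.884. The other, at chr1:135284015-135284156, lay 1 bp from the TSS of Rnpep and had 22 fragments and a fold enrichment of 8.803, so it is a promoter region of the neighbour.

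Among 4960 protein-coding genes with a promoter called in all 4 libraries, those with the pattern of fold enrichment most like Elf3 were Stil, at a Euclidean distance of 0.0677 on the log2 scale over the 4 libraries, and Eloc, at 0.0712. The Stil promoter had fold enrichments of 8.495, 10.69, 7.852 and 6.562 in the order above, and Eloc had 8.464, 10.77, 7.795 and 6.764.

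**Figure D2:**
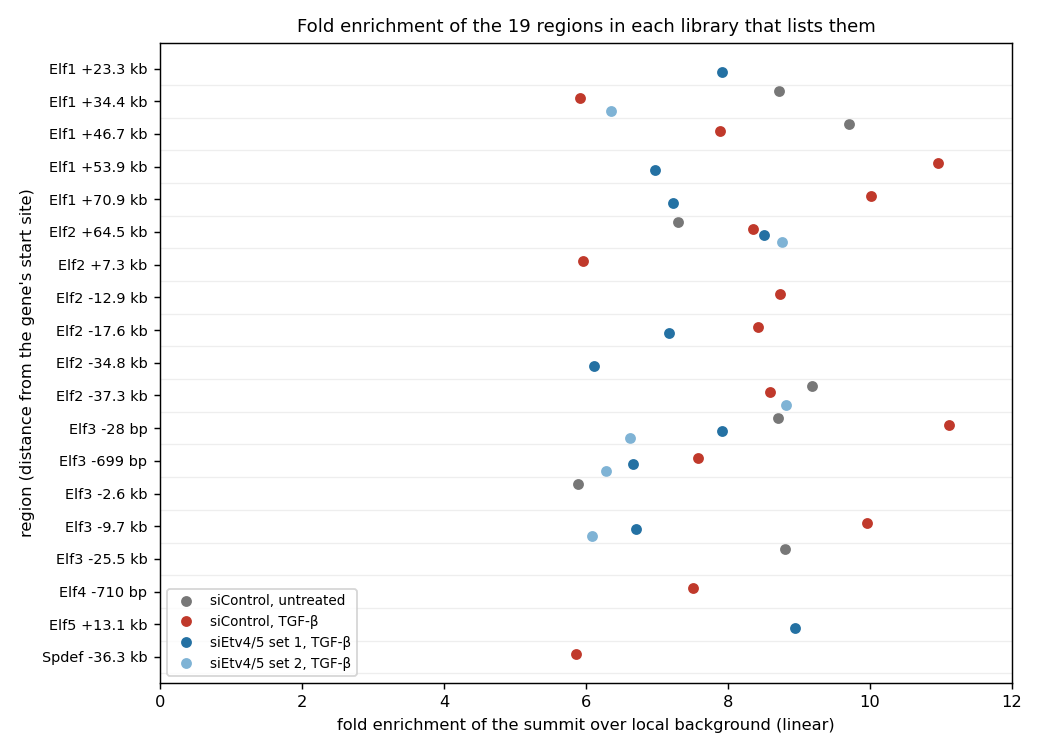
Fold enrichment of the summit over local background (x axis, linear) of the 19 regions (y axis, named by gene and distance from its start site). Each point is 1 library that lists the region and a missing point means that the region is not on that list; the Elf3 promoter ranges from 6.621 in set 2 to 11.11 in siControl TGF-β.

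Ehf and Elf5, neighbouring genes on chromosome 2 whose start sites lie 108.4 kb apart, held 1 region between them. Ehf (minus strand, window chr2:103263433-103353278) had no region in any library, as did 19.6% of the 5540 windows of like length. Over all 21951 protein-coding genes, 27.1% had no region in the window, so a count of 0 was not rare. The region nearest to the Ehf start site lay 122 kb away, inside Elf5. Elf5 (plus strand, window chr2:103361688-103450989) had this single region, at chr2:103424753-103424894, in an intron and 697 bp from an internal Elf5 TSS. It was listed in set 1 alone, with 19 fragments (11.4 to 29.7) and a fold enrichment of 8.936, higher than 70.6% of that list. In the other libraries, regions listed at a like background had at least 10, 11 and 12 fragments (untreated, siControl TGF-β and set 2), and a weaker signal would not have been listed. Below are the bases around the summit, chr2:103424727-103424926 on the plus strand of GRCm38.p6, because it is the only region of this locus. The 250 bases before the first RefSeq start of Elf5, chr2:103411848-103412097, where no library listed a region, follow.
Elf5 internal region: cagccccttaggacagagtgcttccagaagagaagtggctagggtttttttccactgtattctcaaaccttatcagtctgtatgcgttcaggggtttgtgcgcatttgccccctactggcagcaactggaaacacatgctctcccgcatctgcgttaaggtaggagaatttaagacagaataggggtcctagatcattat
Elf5 first promoter: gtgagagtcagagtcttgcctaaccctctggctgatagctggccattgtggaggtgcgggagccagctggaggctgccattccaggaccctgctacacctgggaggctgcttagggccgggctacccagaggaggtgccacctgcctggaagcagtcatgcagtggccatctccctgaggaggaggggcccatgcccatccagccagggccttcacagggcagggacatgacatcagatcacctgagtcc
Neither stretch held the ETS or AP-1 letters searched.

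Spdef (minus strand of chromosome 17, window chr17:27714352-27778955), a factor of secretory cell differentiation, had no region at its promoter. Its window held 1 region, at chr17:27765179-27765311, 36.3 kb upstream in an intron of D17Wsu92e. It was listed in siControl TGF-β alone with 15 fragments (8.4 to 24.7) and a fold enrichment of 5.863, higher than only 5.04% of the list. It was nearer to the start of the pseudogene Rps2-ps9 (19.1 kb) than to that of Spdef. The nearest region to the Spdef start site, 20.6 kb downstream at chr17:27708278-27708478 and outside the window, was listed in the untreated library alone with a fold enrichment of 5.865. The bases around the summit in the window, chr17:27765120-27765319, and the 250 bases before the RefSeq start, chr17:27728952-27729201, are shown on the minus strand since they hold ETS letters in a listed and in an unlisted stretch.
Spdef upstream region: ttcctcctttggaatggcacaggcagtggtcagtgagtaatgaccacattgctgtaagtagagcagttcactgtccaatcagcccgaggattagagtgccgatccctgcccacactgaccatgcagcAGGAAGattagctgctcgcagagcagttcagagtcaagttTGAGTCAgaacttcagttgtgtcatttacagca
Spdef promoter: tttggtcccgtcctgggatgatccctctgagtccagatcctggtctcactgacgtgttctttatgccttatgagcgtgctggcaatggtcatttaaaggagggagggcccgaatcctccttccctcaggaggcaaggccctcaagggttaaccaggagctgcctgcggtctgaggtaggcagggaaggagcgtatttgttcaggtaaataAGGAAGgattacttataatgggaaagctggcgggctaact
The upstream region held 1 ETS and 1 AP-1 match, and the promoter 1 ETS match.

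Of the broadly expressed genes, Elf1 (plus strand of chromosome 14, window chr14:79431194-79582494), a factor known from lymphoid and endothelial genes, held 5 regions, all within its gene body. The first TSS was not called in any library. The promoter region, chr14:79515532-79515709, lay 54 bp from an internal TSS, 34.4 kb into the gene, and overlapped an untranslated exon. Its summit fragments numbered 22 untreated, 15 in siControl TGF-β and 19 in set 2, with fold enrichments of 8.717, 5.921 and 6.349, and the region was not on the set 1 list. It was thus highest in the untreated library on this scale, although the ratio of siControl TGF-β to untreated was 0.640 on the depth-scaled count with an interval from 0.309 to 1.29. The set 2 to siControl TGF-β ratio was 0.998 (0.480 to 2.11).

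The distal region of highest fold enrichment of Elf1, at chr14:79535005-79535193 in an intron, 53.9 kb from the first TSS, was absent from the untreated and set 2 lists. It had 27 fragments in siControl TGF-β and 17 in set 1, and fold enrichments of 10.95 and 6.973. The ratio of set 1 to siControl TGF-β was 0.593 (0.303 to 1.13), which did not differ from 1 beyond counting error. An intronic region 70.9 kb from the TSS, nearer to Gm27857, was listed in the same 2 libraries, with 25 and 19 fragments. One at 46.7 kb was on both siControl lists, with 22 fragments untreated and 16 with TGF-β. One at 23.3 kb was on the set 1 list alone, with 17 fragments. The internal promoter (chr14:79515522-79515703, at most 30 bases of the exon) and the distal region (chr14:79535008-79535207) are printed on the plus strand. They were picked because the first had its highest value untreated, though not beyond counting error against siControl TGF-β. The second was listed in siControl TGF-β and set 1 but not in the untreated or set 2 library.
Elf1 internal promoter: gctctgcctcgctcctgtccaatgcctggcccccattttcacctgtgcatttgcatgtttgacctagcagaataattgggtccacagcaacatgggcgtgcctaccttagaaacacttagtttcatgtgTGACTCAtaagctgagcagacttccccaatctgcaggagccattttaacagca
Elf1 distal, 53.9 kb downstream: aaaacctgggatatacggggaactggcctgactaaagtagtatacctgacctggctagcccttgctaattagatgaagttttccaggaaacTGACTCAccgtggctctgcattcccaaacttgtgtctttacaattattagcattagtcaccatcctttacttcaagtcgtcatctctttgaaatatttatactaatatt
Each held 1 AP-1 match, TGACTCA, and no ETS match.

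Elf2 (minus strand of chromosome 3, window chr3:51252720-51390663), a close relative of Elf1 with activating and repressing isoforms, held 6 regions, more than 83.9% of the 2286 windows of like length. None of them lay within 1 kb of an Elf2 start site. The region at chr3:51276062-51276350, in an intron, was listed in all 4 libraries and lay 1.16 kb from an internal Elf2 TSS and 0.553 kb from the start of 4930577N17Rik. Its summit held 22, 28, 32 and 29 fragments in the untreated, siControl TGF-β, set 1 and set 2 libraries, and the fold enrichments were 7.301, 8.348, 8.503 and 8.759. In contrast to the Elf3 promoter, both knockdown libraries lay above siControl TGF-β on the fold enrichment scale here. For the depth-scaled count, the ratio to siControl TGF-β was 1.08 for set 1 (0.628 to 1.85) and 0.816 for set 2 (0.468 to 1.42). The siControl TGF-β to untreated ratio was 1.20 (0.660 to 2.19). None of these ratios differed from 1 beyond counting error. Over the 10594 regions listed in all 4 libraries, the median ratio to siControl TGF-β was 0.834 for set 1 and 0.613 for set 2. Both Elf2 values lay above these medians, within the central 95% ranges of 0.534 to 1.31 and 0.385 to 1.01. The bases around this summit, chr3:51276116-51276315 on the strand of Elf2, are shown since it is the other region listed in all 4 libraries.
Elf2 intron, 64.5 kb downstream: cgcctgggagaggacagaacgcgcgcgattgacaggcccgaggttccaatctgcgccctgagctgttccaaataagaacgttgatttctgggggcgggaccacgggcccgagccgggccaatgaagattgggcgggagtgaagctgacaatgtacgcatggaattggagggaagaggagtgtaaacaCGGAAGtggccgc
The capitals mark 1 ETS match, CGGAAG.

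The distal region of highest fold enrichment of Elf2 lay 37.3 kb upstream at chr3:51377893-51378102, which is 27 bp from the start of the lincRNA gene Gm5103. Its fold enrichment was 9.186 untreated, 8.596 in siControl TGF-β and 8.816 in set 2, from 25, 22 and 26 fragments, and it was not on the set 1 list. The values of the 3 libraries did not differ beyond counting error, with a siControl TGF-β to untreated ratio of 0.826 (0.444 to 1.53) and a set 2 to siControl TGF-β ratio of 0.931 (0.507 to 1.72). Regions listed in siControl TGF-β alone were at chr3:51333272-51333455 (15 fragments) and chr3:51353487-51353625 (22 fragments). One at 17.6 kb upstream, nearer to Gm37203, was on the siControl TGF-β and set 1 lists, and one at 34.8 kb upstream, nearer to Gm5103, on the set 1 list alone.

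Elf4 (minus strand of the X chromosome, window chrX:48411046-48513132), known for roles in innate immune and lymphoid cells, had 1 region, while 63.0% of the 4071 windows of like length held more. It lay at chrX:48463773-48463911, 710 bp upstream of the TSS in intergenic sequence, and was listed in siControl TGF-β alone with 17 fragments (9.9 to 27.2) and a fold enrichment of 7.511. Regions at a like background in the other libraries had at least 11, 11 and 13 fragments, in the order untreated, set 1 and set 2. The stretch chrX:48463745-48463944 is printed on the strand of Elf4 as the only region within 1 kb of a gene's first start site besides those of Elf3.
Elf4 upstream promoter region: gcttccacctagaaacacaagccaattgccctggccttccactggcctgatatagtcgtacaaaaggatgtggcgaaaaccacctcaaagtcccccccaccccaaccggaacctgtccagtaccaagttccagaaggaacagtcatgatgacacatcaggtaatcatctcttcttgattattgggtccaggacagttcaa
No ETS or AP-1 letters were found in it.

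**Figure D3:**
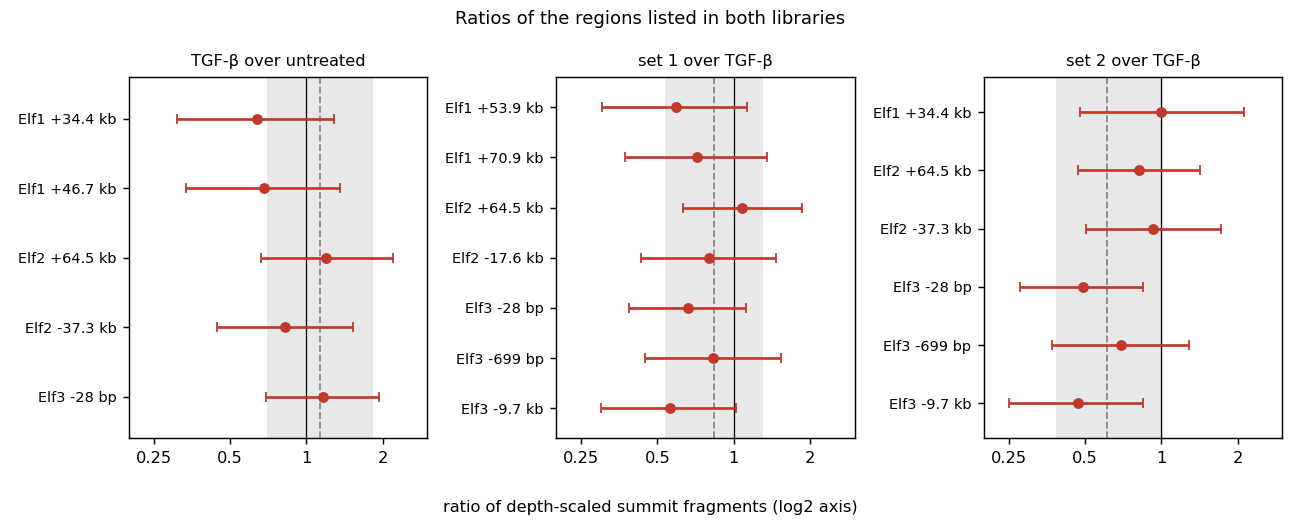
Ratio of depth-scaled summit fragments (x axis, log2 scale) for each region listed in both libraries of a comparison. Bars are 95% exact binomial intervals of counting error. The dashed line and grey band are the median and central 95% range over the 10594 regions listed in all 4 libraries, and the solid line is 1. Only the set 2 ratios of the Elf3 promoter and of the Elf3 region at −9.7 kb have an interval that leaves out 1. Both of these ratios lie within the grey band. Of the regions drawn, only the Elf3 promoter and the Elf2 region at +64.5 kb are among the 10594.

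Turnover of the regions between libraries was compared with that over the whole lists. Of the 14 siControl TGF-β regions in the 7 windows, 9 (64.3%) were absent from the untreated list, against 37.0% of all siControl TGF-β regions. Of the 7 untreated regions, 2 (28.6%) were absent with TGF-β, against 18.4% of the whole list. With set 1, 7 of the 14 siControl TGF-β regions were absent (50.0%, all regions 33.6%), and with set 2, 8 were absent (57.1%, all regions 53.6%). Of the 10 set 1 regions, 3 (30.0%) were not on the siControl TGF-β list, against 15.2% of the whole list, and of the 6 set 2 regions 0, against 10.3%. Of the 19 merged regions, 9 (47.4%) were listed in 1 library and 2 (10.5%) in all 4, against 31.5% and 29.6% of all merged regions. These counts rest on few regions, and they depend on list length. With each list held to its 14925 most significant regions, 5 of 7 siControl TGF-β regions were absent from the untreated list (34.4% of that whole list) and 4 of 6 untreated regions were absent with TGF-β (34.3%). At this length, 4 of 7 siControl TGF-β regions were absent with set 1 (31.4%) and 4 with set 2 (33.4%). Conversely, 1 of 4 set 1 regions (31.4%) and 3 of 6 set 2 regions (33.0%) were absent from siControl TGF-β. When the window reached only 10 kb upstream, it held 10 siControl TGF-β regions. Of these, 4 were absent with set 1 (all regions 33.6%) and 5 with set 2 (all regions 53.6%).

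The fold enrichment of the regions in the windows ranged from 5.884 to 9.706 untreated, 5.863 to 11.11 in siControl TGF-β, 6.11 to 8.936 in set 1 and 6.084 to 8.816 in set 2. The medians were 8.72, 8.38, 7.19 and 6.49, against 8.192, 8.435, 7.913 and 7.154 over the whole lists. At the 2 regions listed in all 4 libraries, the median log2 ratio of fold enrichment was 0.27 for siControl TGF-β over untreated (all regions 0.14), −0.23 for set 1 over siControl TGF-β (all regions −0.18) and −0.34 for set 2 (all regions −0.40).

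Promoters, taken as 1 kb on either side of any annotated TSS, were called for Elf1 and Elf3 in the untreated library, for Elf1, Elf3 and Elf4 in siControl TGF-β, for Elf3 and Elf5 in set 1, and for Elf1 and Elf3 in set 2. Elf2, Ehf and Spdef had none. That is 2, 3, 2 and 2 of 7 genes, while 34.3%, 36.0%, 32.3% and 25.9% of all protein-coding genes had a called promoter in the same libraries. At this width, Elf3 was the only gene of the 7 with a promoter called in all 4 libraries, as for 22.6% of protein-coding genes. With 2 kb on either side, the region of Elf2 listed everywhere also counted, so that Elf2 joined Elf3 and the numbers were 3, 4, 3 and 3 of 7, against 36.3%, 38.3%, 34.4% and 27.4% of protein-coding genes.

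RefSeq gives 10 promoters (250 bases before to 50 after the start) for 6 of the 7 genes, in GRCm38.p6. The ratio of observed to expected CpG was 1.08 and 0.202 at the first and internal starts of Elf1, 0.998 and 0.923 at those of Elf2, and 0.530 and 0.692 at those of Elf4. It was 0.460 at Elf3, 0.110 and 0.442 at Elf5 and 0.329 at Spdef. The 2 promoters overlapped within these bases were CpG-poor: a region overlapped the Elf3 promoter in 4 libraries and the internal Elf1 promoter in 3. None of the 4 promoters above 0.6, those of Elf1, Elf2 and Elf4, was overlapped in any library. This depends on the width, since with 2 kb on either side Elf2 was also called in all 4 libraries, near its internal start (ratio 0.923). Of all 11756 RefSeq promoters above 0.6, 54.9% were overlapped by a region in at least 1 library, against 7.4% of the 21095 others. The internal RefSeq promoter of Elf2, whose start lies 1.31 kb from the midpoint of the region listed everywhere, held 5 ETS matches and 1 AP-1 match, and 46.5% of all RefSeq promoters held an ETS match and 7.81% an AP-1 match.

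**Figure D4:**
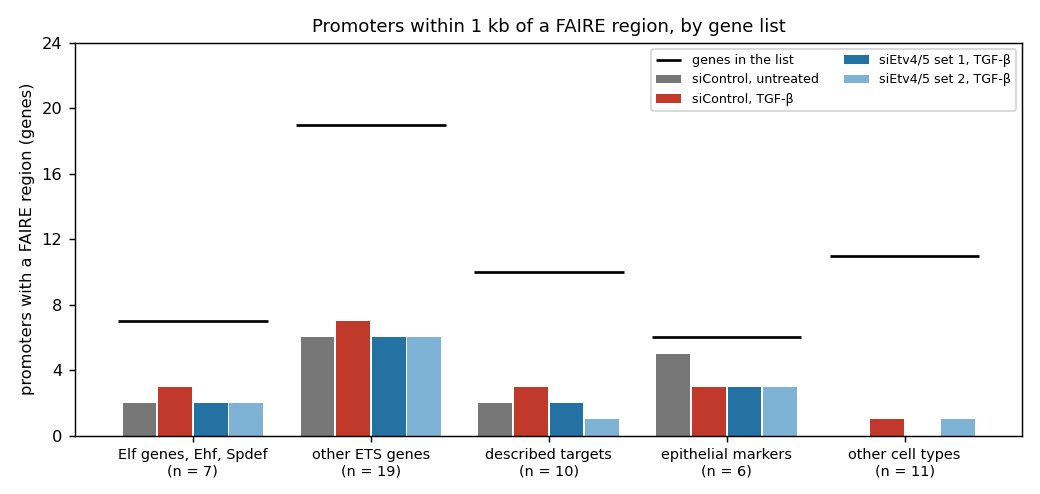
Number of genes (y axis) whose promoter, 1 kb on either side of a start site, overlaps a FAIRE-positive region in each library, for 5 gene lists (x axis, with the number of genes). Black lines mark the size of the list; the 7 Elf, Ehf and Spdef genes reach 2 or 3 in every library and the 19 other ETS genes 6 or 7.

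The other ETS genes and genes downstream of the family were compared as lists. Of 19 other ETS genes, 6, 7, 6 and 6 had a called promoter in the 4 libraries. The shares over all protein-coding genes were 34.3%, 36.0%, 32.3% and 25.9%. Ets1, Gabpa, Etv4 and Etv5 had one in all 4, as did 22.6% of all protein-coding genes. The windows of the 19 genes held 76 regions, with a median of 4 per gene against 1 for the 7 genes and 2 for all protein-coding genes. Of the 19, 2 genes, Erg and Fev, had no region, against 27.1% of all protein-coding genes. Among 10 genes described as targets, the promoter of Foxa3, described downstream of Spdef in goblet cells, was called in all 4 libraries with fold enrichments of 10.14, 7.756, 10.80 and 8.934. That of Tgfbr2, the type II TGF-β receptor gene, was called in siControl TGF-β (7.365) and set 1 (7.591). That of Snai2, an EMT factor described as repressed by Elf5, was called only in the untreated library (7.043), and that of the casein gene Csn3 only in siControl TGF-β (9.936). The promoters of the milk protein genes Wap, Csn2, Csn1s1, Csn1s2a and Lalba, and of Agr2, were not called in any library. Thus 6 of the 10 genes had no called promoter, near the 59.8% of all protein-coding genes. One called in all 4 libraries was held by 1 of the 10, against 22.6%.

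Letters of 4 motifs were searched on both strands within the 200 bp centred on the strongest summit. ETS letters (AGGAAG or CGGAAG) were found in 6 of the 19 regions (31.6%), against 36.8% of 35789 regions on the assembled chromosomes. AP-1 letters (TGANTCA) were found in 8 (42.1%, all regions 38.1%), and RUNX letters (TGTGGT) in 3 (15.8%, all regions 19.9%). The Grainyhead-like letters (AACNGGTT) were found in 0, against 1.68% of all regions. The shares thus lay near those of all regions. By gene, 4 of the 8 regions with AP-1 letters lay in Elf1, and 3 of the 6 with ETS letters in Elf2. Both letters stood in the same stretch at the Spdef region and at the Elf2 region 7.3 kb downstream of its first TSS.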

How the data were processed

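FAIRE-seq reads from EpRas cells were mapped to mm10 by the authors, and regions were called with MACS2 at q below 1e-04 (version 2.1.0 in the submitters' processing notes; the paper names another version). The deposited lists give each region's fold enrichment (a ratio of summit to local background), −log10 p and q, and a score, which is 10 times the −log10 q. Whether replicates were combined was not stated.

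The number of summit fragments and the local background were solved from fold enrichment and p, and 100% of regions in each library gave a whole number within 0.001 of the deposited −log10 p. Depth was estimated from the lowest background, an effective genome of 1.87 Gb and the shortest width, and is approximate. The lowest summit listed at the lowest background was 10, 11, 11 and 12 fragments. Gene models were GENCODE vM21 basic. Ratios have exact binomial intervals at 95%. Python 3.11.15, pandas 2.3.3, scipy 1.17.1 and pysam were used, and the solver was tested on simulated data. Regions named in full were the promoter regions, the distal region of highest fold enrichment of each gene, and those listed in all 4 libraries. The genes, lists and rules were chosen with earlier results of these data known. Alternatives were a q limit of 1e-06, equal list length, 10 kb upstream, overlap of a larger share of the shorter region, depth-scaled fragments, and a promoter of 2 kb on either side.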

Additional observations from a re-analysis of the deposited data

How the results depend on the processing

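Of 46 values recomputed under another choice, 35 stayed within the set tolerance, 11 moved and 0 reversed direction. Counts have no sign, so the last number speaks only for the log2 ratios. Against the share over all regions, some counts changed side. At equal length, set 1 regions absent from siControl TGF-β went from above (3 of 10 against 15.2%) to below (1 of 4 against 31.4%). Set 2 regions went from below (0 of 6 against 10.3%) to above (3 of 6 against 33.0%). With 10 kb upstream, siControl TGF-β regions absent with set 2 went from above (8 of 14 against 53.6%) to below (5 of 10). With equal list length, 7 regions remained in siControl TGF-β and 4 in set 1. The siControl TGF-β regions absent from the untreated, set 1 and set 2 lists then numbered 5, 4 and 4, the untreated regions absent with TGF-β 4, and the set 1 and set 2 regions absent from siControl TGF-β 1 and 3. With 10 kb upstream, 1 of 5 untreated regions was absent with TGF-β (all regions 18.4%). Of 10 siControl TGF-β regions, 4 were absent with set 1 (all regions 33.6%) and 5 with set 2 (all regions 53.6%). The 10 kb window can hold no more regions than the full one, and equal list length shortens every list but that of set 2. Not every count fell. At equal length, untreated regions absent with TGF-β rose from 2 to 4, and set 2 regions absent from siControl TGF-β from 0 to 3. With promoters at 2 kb, the called promoters numbered 3, 4, 3 and 3 in the untreated, siControl TGF-β, set 1 and set 2 libraries. The untreated and set 1 numbers, of 7 genes, then lay above the share of all protein-coding genes (36.3% and 34.4%). At 1 kb, with 2 of 7 in each, they lay below it (34.3% and 32.3%). A q limit of 1e-06 and the stricter overlap changed no count in the windows. The q limit could remove no region there, since the lowest −log10 q in the windows was 7.432. No paired analysis was possible because each group has 1 list, and leaving out a replicate was not possible for the same reason. Since each summit held only 15 to 37 fragments, counting error alone is wide, and a region missing from a list may hold signal below the listing limit.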
